A study of Mus musculus with 41 samples.

Results

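The cytosolic ribosomal protein genes were followed in mouse microglia taken straight from the brain, in microglia kept in culture, and in whole brain lysate. Genes were chosen by symbol: Rpl or Rps followed by a number, the stalk genes Rplp0, Rplp1 and Rplp2, and Rpsa, leaving out named pseudogenes and the Rps6k kinases. Of the 24537 genes of the count table, 85 symbols matched, and 69 of them also had a mean of at least 1 CPM (counts scaled to the total count of the library) in at least 1 of the 5 microglial groups. These 69 genes comprise 41 of the large subunit, counting the stalk, and 28 of the small subunit, and 68 of them are annotated as protein coding. The measured level thus took part in the choice: 59 genes reached the limit in all 5 microglial groups and 10 in some groups only, so for those 10 a difference between groups is partly built in.

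The cytosolic ribosome joins a small subunit, which reads the mRNA, to a large subunit, which forms the peptide bond, and each carries a set of proteins on a ribosomal RNA core. Most of the mRNAs for these proteins begin with a cytosine followed by a run of pyrimidines, the 5′ terminal oligopyrimidine (TOP) tract, through which mTORC1 and the RNA-binding protein Larp1 control how strongly they are translated. The genes are short and strongly expressed in all tissues, and many have left processed pseudogenes, near-identical copies that make short reads hard to place.

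All animals were of the C57Bl6 strain, and the labels give no genotype, age or sex. Poly(A) RNA was sequenced from sorted microglia ex vivo (5 libraries), from sorted microglia cultured for 6 h (2 libraries), 24 h (3 libraries, replicate 2 being labelled 22 h) or 7 d (5 libraries), from microglia cultured for 7 d with TGFβ added (2 libraries), and from brain lysate (4 libraries). All cultures, with or without TGFβ, received interleukin-34, a ligand of the Csf1 receptor, in medium with serum that was not exchanged, so effects of culture, serum and interleukin-34 cannot be told apart. Chromatin accessibility (ATAC) and H3K27ac were mapped ex vivo and at 7 d (ATAC replicate 2 being labelled 8 d), while ex vivo microglia were also mapped for H3K4me2 and for PU.1, a transcription factor. The labels do not say which libraries came from separate animals, so the p-values measure the spread between these libraries, which may be technical.

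RNA libraries held 11584561 to 28841472 counts. The 8 microglial marker genes summed to 41542 to 49459 CPM ex vivo, 3795 to 3944 at 6 h, 4333 to 4610 at 24 h, 7047 to 10724 at 7 d, 15893 to 17618 at 7 d with TGFβ and 293 to 383 in lysate, and none was at 0 in any group. The 6 neuronal markers reached at most 13.7 CPM in an ex vivo library and 2.05 in a cultured one, against 4671 to 6027 in lysate. The 4 endothelial markers summed to 0.600 to 1.87 CPM ex vivo, 4.13 to 6.45 at 6 h, 4.36 to 12.3 at 24 h, 9.75 to 35.4 at 7 d and 24.2 to 55.1 with TGFβ, against 126 to 210 in lysate, so their sum was higher in every cultured library than ex vivo, as was the ribosomal protein share. At 7 d, with or without TGFβ, the whole sum was Flt1, a VEGF receptor, while Cldn5, Ly6c1 and Slco1a4 were at 0 counts. The part of endothelial RNA in the results was not tested. Among the ex vivo libraries, replicate 3 had the highest sums of astrocyte (165 CPM), oligodendrocyte (114 CPM) and choroid plexus markers (119.8 CPM), and replicates 2 and 3 had neutrophil marker sums of 171 and 156 CPM against 3.22 to 35.4 in the others.

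The start of the transcript is shown for the 10 genes whose RefSeq start falls on a TOP-like tract, here a C followed by at least 4 further pyrimidines, because this is the element the gene family is known for. Each line gives 30 bases of build GRCm38.p6, 10 before the annotated start and 20 from it on, 5′ to 3′ on the strand of the gene, with the pyrimidine run from the start base in capitals.
Rpl14, chr9:120571507-120571536, plus strand: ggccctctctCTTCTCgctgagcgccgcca
Rpl15, chr14:18270967-18270996, minus strand: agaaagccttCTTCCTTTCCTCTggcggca
Rpl35a, chr16:33056472-33056501, plus strand: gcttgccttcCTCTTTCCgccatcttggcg
Rplp2, chr7:141447641-141447670, plus strand: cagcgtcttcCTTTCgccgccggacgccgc
Rps10, chr17:27635225-27635254, minus strand: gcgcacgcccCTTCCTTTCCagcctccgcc
Rps15a, chr7:118116128-118116157, minus strand: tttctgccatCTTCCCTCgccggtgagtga
Rps18, chr17:33955646-33955675, minus strand: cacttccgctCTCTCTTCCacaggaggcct
Rps21, chr2:180257369-180257398, plus strand: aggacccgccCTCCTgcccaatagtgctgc
Rps27, chr3:90213629-90213658, minus strand: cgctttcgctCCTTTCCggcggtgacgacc
Rps6, chr4:86857348-86857377, minus strand: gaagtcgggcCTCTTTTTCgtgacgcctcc
The longest of these runs, 13 bases, starts Rpl15, and the shortest, 5 bases, start Rplp2 and Rps21.

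RefSeq promoter entries were matched by symbol for 51 of the 69 genes, with 62 annotated starts. Those without an entry included Rpl17, Rpl21, Rpl29, Rpl3, Rpl30, Rpl32, Rpl36, Rpl7, Rpl8, Rplp1, Rps14, Rps20, Rps27a and Rps4l. A tract at the start base was found at 10 of 62 starts (16.1%), against 2.51% of all 32851 starts in the table and 2.4% of the 13234 starts of genes that entered the test of the microglial libraries. A match says only that these letters stand in the window; no match says only that they do not. A tract starting within 5 bases on either side was present at 43.5% of the ribosomal protein starts against 18.3% of all starts. The word CTTTCC, or the related word CTTTTC, or the shifted word CTCTTT, lay within 20 bases of the start, on the strand of the gene, at 27.4% of the starts against 4.47% of all and 4.07% for tested genes.

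Other promoter words were counted on both strands in the whole window of 250 bases before to 50 after the start. The ETS-type word CCGGAAG was present at 38.7% of the starts, against 8.86% of all starts and 16.6% of those of tested genes, and the YY1-type word ATGGCGG at 19.4%, against 4.05% and 7.65%. The SP1-type word GGGCGG was present at 61.3%, above the 35.7% of all starts but close to the 60.2% of tested genes. The E-box CACGTG was present at 12.9%, against 7.15% of all starts and 9.82% of those of tested genes. Genes with several starts can count more than once in these shares. Counted by gene, the E-box stood in 6 of 51, a share close to the 1215 of 10457 tested genes. The YY1-type word stood in 9 of 51 genes, against 959 of 10457. CCAAT stood at 30.6%, against 37.4% and 37.7%. TATAAA stood at 8.06%, under the 13.6% of all starts and close to the 7.34% of tested genes. Words were searched separately, and the YY1-type and start-tract windows can overlap. The ETS-type word is the core bound by ETS family factors, to which PU.1 belongs, although PU.1 is known to prefer a longer and different sequence. In 6 genes it fell within the 30 bases around a start without a tract, and 4 of them, picked after their values were seen, are printed with the word in capitals: Rps27l and Rpl26 rose strongly at 7 d, and Rpl31 and Rpl6 moved in opposite directions at 6 h.
Rps27l, chr9:66946076-66946105, plus strand: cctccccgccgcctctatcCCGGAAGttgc
Rpl26, chr11:68901556-68901585, plus strand: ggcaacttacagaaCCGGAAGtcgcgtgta
Rpl31, chr1:39367841-39367870, plus strand: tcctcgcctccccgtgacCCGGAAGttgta
Rpl6, chr5:121204491-121204520, plus strand: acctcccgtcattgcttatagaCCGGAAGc

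Levels per length, as the deposited TPM (transcript level scaled to gene length and to the library), spanned 487-fold among the 69 genes, from 1.18 for Rpl21 to 576 for Rplp1, with a median of 31.0 over the 17 microglial libraries. Among the 5 highest were Rplp1 (576 TPM), Rpl8 (501 TPM), Rpl4 (470 TPM) and Rps9 (324 TPM). The 5 lowest were Rpl21 (1.18 TPM), Rpl19 (1.66 TPM), Rpl39l (2.16 TPM), Rpsa (2.66 TPM) and Rpl9 (2.83 TPM). Ribosomes hold most of these proteins in equal number, so levels of different genes are read here only as the values of this table.

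Symbols with 4 or more pseudogenes named after them in RefSeq had a lower median level. Of the 85 symbols, 64 have at least 1 named pseudogene, 317 in all and up to 23 for 1 gene. The median level was 31.0 TPM for the 21 symbols without a named pseudogene, 29.8 TPM for the 34 symbols with 1 to 3, and 11.7 TPM for the 30 symbols with 4 or more. The 1 CPM limit was met by 15 of the 21, 26 of the 34 and 28 of the 30, most often in the class with the lowest median. The lowest single level, 0.00988 TPM, was that of a symbol without a named pseudogene. The relation was loose: Rps2, with 12 named pseudogenes, stood at 86.8 TPM, while Rpl11, with none, stood at 1.46 TPM and missed the limit at a highest group mean of 0.602 CPM. The sources used here do not give how reads with several matches were counted, and its part in these levels was not tested. Gapdh, a housekeeping gene known for many processed pseudogenes and named here after its values were seen, held only 0.608 to 4.20 CPM in the 21 libraries.

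**Figure D1:**
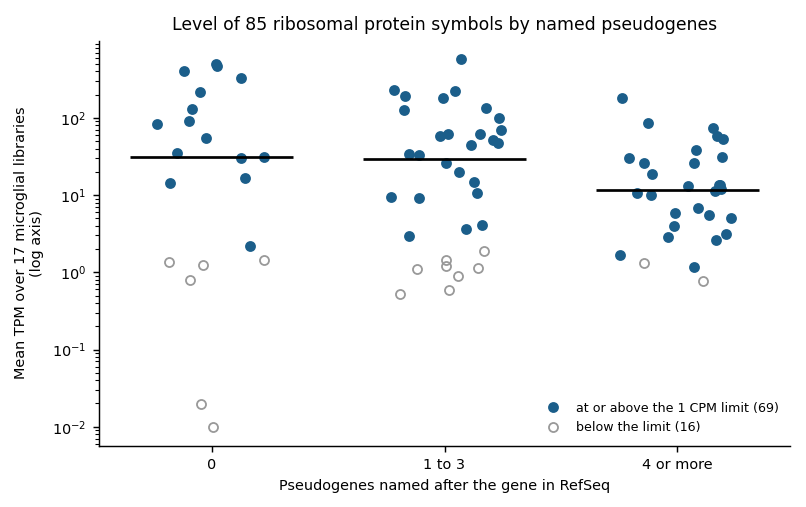
Mean TPM over 17 microglial libraries (log axis) of 85 ribosomal protein symbols, by the number of pseudogenes named after each in RefSeq; filled points are the 69 genes at or above the 1 CPM limit, open points the 16 below it, and lines are medians. The medians are 31.0, 29.8 and 11.7 TPM, with wide overlap between the classes.

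Just inside the 1 CPM limit lay Rpl19 (1.09 CPM in its highest group), Rpl21 (1.71 CPM) and Rps27a (1.91 CPM), and outside but near it lay Rpl32l (0.645 CPM) and Rps29 (0.617 CPM). The 10 genes at the limit in some groups only were Rps13 and Rpl19 (1 group each), Rps27, Rpl9 and Rpl39l (2 groups each), and Rpl21, Rpl31, Rpl36, Rps7 and Rpsa (4 groups each). The genes also share features the choice did not use. Their median gene length was 3230 bp against 18143 bp for the 19907 protein-coding genes of the table. Of the 69, 28 (40.6%) hold at least 1 small nucleolar RNA within their gene body, 55 such RNAs in all, against 1.75% of protein-coding genes; these RNAs guide modification of ribosomal RNA.

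Together the 69 genes held a small share of each library that was higher in every cultured library than in any ex vivo library. Ex vivo replicates 1 to 5 held 0.158%, 0.108%, 0.194%, 0.125% and 0.113% of all counts. The 6 h libraries held 0.211% and 0.229%, and the 24 h libraries 0.246%, 0.273% and 0.277%. At 7 d the share was 0.251%, 0.650%, 0.661%, 0.313% and 0.239%, and with TGFβ 0.345% and 0.404%. Replicates 2 and 3 at 7 d stood far above the other 3 libraries of their group, which overlapped the 24 h values. Relative to the ex vivo mean, the share was 1.58 times (6 h), 1.90 times (24 h), 3.03 times (7 d) and 2.69 times (TGFβ), and at 7 d it was 1.92 times without replicates 2 and 3. Brain lysate held 0.200%, 0.214%, 0.171% and 0.161%. No test was made on this sum. In bulk libraries fewer cells of a type and less RNA per cell cannot be told apart.

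**Figure D2:**
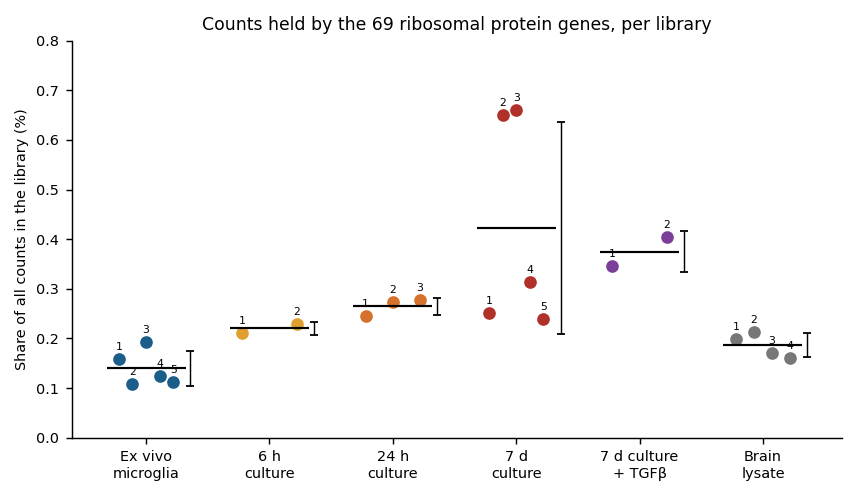
Share of all counts (percent) held by the 69 ribosomal protein genes in each of 21 RNA libraries, with replicate numbers above the points; black lines are group means and the bars beside them ± 1 SD. The 12 cultured libraries (0.211% to 0.661%) lie above the 5 ex vivo libraries (0.108% to 0.194%), and 7 d replicates 2 and 3 lie above all others.

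Gene by gene, changes in culture were tested with edgeR's quasi-likelihood test on the counts of all 13840 genes passing the expression filter, with Benjamini-Hochberg adjustment over all of them and a threshold of 0.05. After 6 h, 21 of the 69 genes were higher than ex vivo (31.2% of all genes tested were) and 5 were lower (36.8% of all genes). After 24 h, 21 were higher (29.6% of all genes) and 4 lower (33.1%). After 7 d, 50 were higher (34.8% of all genes) and 7 lower (35.7%), and with TGFβ 47 were higher (28.3%) and 5 lower (27.5%). The median log2 fold change of the 69 genes was 0.75, 0.66, 1.52 and 1.58 in the same order, beside -0.17, -0.06, -0.02 and -0.05 for all genes. At 6 and 24 h the share of genes called higher was thus near the background, while the share called lower was under it. CPM in the text is per total count of a library, whereas the fitted changes use TMM factors, which were 0.784 and 0.814 in the 6 h libraries and 0.916 to 1.13 in the other microglial libraries, so 6 h levels in CPM read lower than the fits. Lower genes numbered 2 at 6 h without either 6 h library and 3 without ex vivo replicate 1, 2 at 24 h without 24 h replicate 1 or ex vivo replicate 1, and 3 with TGFβ without TGFβ replicate 2, which also left 31 genes higher. The lower genes were Rpl10, Rps13, Rpl27a, Rpl31 and Rpl5 at 6 h, Rpl10, Rps13, Rpl10a and Rps27 at 24 h, and Rpl10, Rps13, Rpl10a, Rpl12 and Rpl9 with TGFβ. These 4 comparisons share the ex vivo libraries and are not independent of each other. Among the 59 genes at the limit in every group, 48 were higher and 4 lower at 7 d. Of the 10 genes with a tract at their start, 3 were higher at 6 h, 3 at 24 h and 9 at 7 d. With TGFβ 7 of them were higher, and Rps27 was lower at 24 h and 7 d. Without 7 d replicates 2 and 3, Rpl35a, Rplp2 and Rps15a no longer passed at 7 d (adjusted p = 0.19, 0.12 and 0.32, edgeR).

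**Figure D3:**
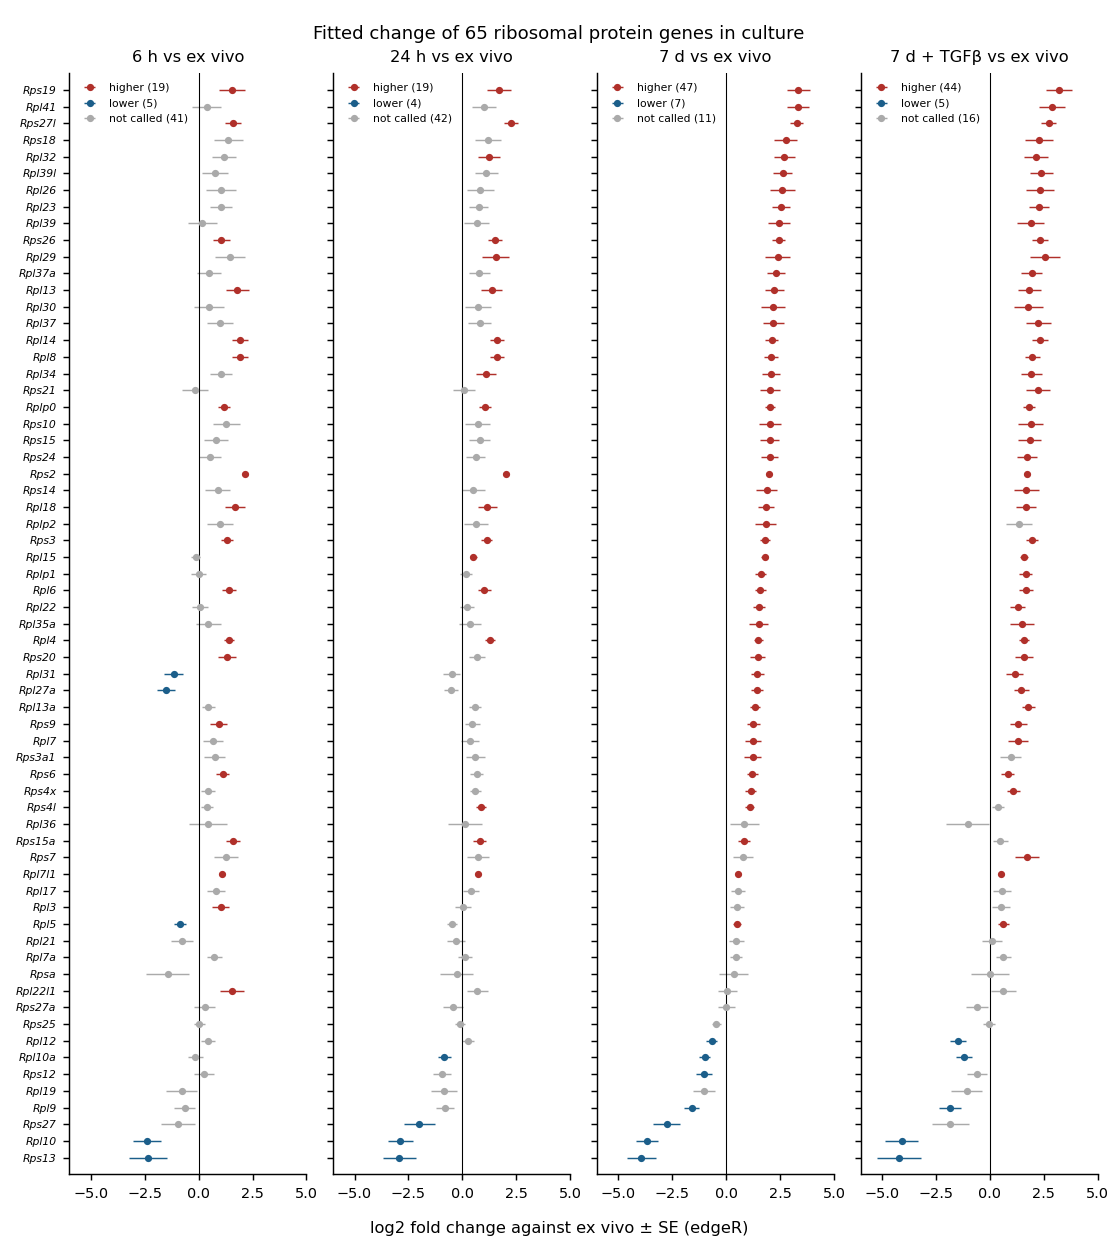
Fitted log2 fold change against ex vivo (± SE, edgeR) of 65 of the 69 genes at 6 h, 24 h, 7 d and 7 d with TGFβ, ordered by the 7 d value; red and blue mark genes called higher and lower at an adjusted p under 0.05, grey the others. Of those drawn, 19, 19, 47 and 44 are called higher, and Rps13 and Rpl10, placed at the bottom by this order, are called lower in every panel.

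The counts at 6 h depended on scaling. With library totals in place of TMM factors the median of all genes moved from -0.17 to -0.57, and 3068 of 13840 genes were higher and 6322 lower. Of the ribosomal protein genes, 13 were higher and 6 lower, and their median moved from 0.75 to 0.35, so both medians moved down together. Genes of both subunits rose: at 7 d 29 of 41 large-subunit genes were higher and 4 lower, and 21 of 28 small-subunit genes were higher and 3 lower, with medians of 1.52 and 1.63. Of the 15 genes with no named pseudogene, 9 were higher at 6 h, 6 at 24 h and 14 at 7 d, and none was lower; the 14 exclude Rpl22l1. Rows of the table named as ribosomal pseudogenes, 7 in number, summed to 25.7 to 89.2 CPM ex vivo and 100 to 332 CPM at 7 d, where replicates 2 and 3 were again highest (332 and 319 CPM). They did not all move with this sum: of the 5 rows tested at 7 d, 3 were higher and 2 lower (34.8% and 35.7% of all genes). Whether reads of the parent genes account for these rows was not tested.

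The stalk proteins recruit the translation factors that use GTP. Rplp0, which anchors the stalk, stood at 75.5, 48.8, 84.9, 102 and 67.6 CPM ex vivo, at 119 and 140 CPM at 6 h, and at 144, 163 and 174 CPM at 24 h. At 7 d it stood at 190, 436, 464, 225 and 193 CPM, and with TGFβ at 228 and 248 CPM. None of the cultured libraries overlapped the ex vivo libraries. Its log2 fold change was 1.17 ± 0.30 (SE) at 6 h (adjusted p = 0.0022, edgeR), 1.04 ± 0.27 at 24 h (adjusted p = 0.0027) and 2.04 ± 0.24 at 7 d (adjusted p = 1.4e-06).
Rplp1, its partner on the stalk, stood at 110, 59.3, 149, 52.8 and 79.7 CPM ex vivo and did not pass the test at 6 h (64.9 and 70.9 CPM) or 24 h (86.1, 105 and 119 CPM). It rose at 7 d, at 172, 344, 367, 249 and 180 CPM, all above the ex vivo libraries, by a log2 fold change of 1.60 ± 0.26 (adjusted p = 4.1e-05, edgeR).
Rplp2 ranged from 8.92 to 35.2 CPM ex vivo and from 22.2 to 113 CPM at 7 d, with overlap between the groups. Its rise of 1.84 ± 0.49 at 7 d (adjusted p = 0.0037, edgeR) rested on 7 d replicates 2 and 3, without which it was 0.67 ± 0.37 (adjusted p = 0.12). Of the 3 stalk genes, Rplp0 alone passed the test at all 3 times; the difference between the genes was not tested.

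Early risers included proteins of both subunits. Rps2, a small-subunit protein methylated by Prmt3, had closely spaced values ex vivo. It held 16.6, 16.0, 16.9, 19.6 and 18.7 CPM ex vivo, 53.5 and 63.3 CPM at 6 h, and 69.3, 74.7 and 72.6 CPM at 24 h. At 7 d it held 56.0, 79.8, 84.3, 60.5 and 54.9 CPM. Every cultured library was above every ex vivo library, and 7 d replicates 2 and 3 were only modestly above the other 7 d libraries. The log2 fold change was 2.13 ± 0.14 at 6 h (adjusted p = 1e-09, edgeR), 2.00 ± 0.13 at 24 h (adjusted p = 8.1e-10) and 1.99 ± 0.12 at 7 d (adjusted p = 2.6e-10). RefSeq names 12 pseudogenes after it and its body holds 2 small nucleolar RNAs.
Rpl8, a large-subunit protein near the peptidyl transferase centre, rose from 52.9 to 156 CPM ex vivo to 240 and 284 CPM at 6 h, by 1.94 ± 0.37 on the log2 scale (adjusted p = 0.00022, edgeR). Rpl14, whose transcript begins with the tract CTTCTC shown above, rose from 7.87 to 22.1 CPM ex vivo to 39.2 and 36.7 CPM at 6 h, by 1.91 ± 0.37 (adjusted p = 0.00025, edgeR). At 24 h they held 282 ± 25.1 and 41.4 ± 4.14 CPM (mean ± SD, n = 3), close to 6 h. Rpl6, a large-subunit protein whose start window holds the ETS-type word, rose by 1.40 ± 0.33 at 6 h (adjusted p = 0.0012, edgeR), from 5.51 to 14.3 CPM ex vivo to 19.3 and 23.7 CPM.

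The set that was higher in each of the 4 culture groups counted 15 genes, among them Rpl13, Rpl14, Rpl18, Rpl4, Rpl6, Rpl7l1, Rpl8, Rplp0, Rps19, Rps2, Rps26, Rps27l and Rps3. In each single group 28.3% to 34.8% of all genes were higher, and the 4 comparisons share the ex vivo libraries. How many of all genes were higher in all 4 groups is not given here, so the size of this set is not read as a result. Rpl4, which lines the exit tunnel of the large subunit, held 141 to 235 CPM ex vivo, 397 and 360 CPM at 6 h, 453, 449 and 501 CPM at 24 h, and 319 to 738 CPM at 7 d. Rps3, at the mRNA entry of the small subunit, held 64.6 to 158 CPM ex vivo and 222 to 514 CPM at 7 d (log2 fold change 1.81 ± 0.24, adjusted p = 4.5e-06, edgeR). The ex vivo and 7 d values did not overlap for either gene.

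A few genes were lower at 6 h and higher at 7 d. Rpl27a stood at 6.70 to 10.5 CPM ex vivo, fell to 2.11 and 2.29 CPM at 6 h (-1.52 ± 0.40, adjusted p = 0.0031, edgeR) and rose to 10.7 to 35.4 CPM at 7 d (1.42 ± 0.27, adjusted p = 0.0002). Rpl31 fell by 1.16 ± 0.46 on the log2 scale at 6 h (adjusted p = 0.034, edgeR), to 0.858 and 0.748 CPM from 1.80 to 2.90 CPM, and rose by 1.44 ± 0.31 at 7 d (adjusted p = 0.00059). Its fall at 6 h did not pass without either 6 h library (adjusted p = 0.11 and 0.17) or without ex vivo replicate 1 (0.063). Rpl5, which with Rpl11 carries 5S ribosomal RNA and can bind Mdm2, fell by 0.85 ± 0.28 at 6 h (adjusted p = 0.013, edgeR; 0.19 without 6 h replicate 2), and its rise of 0.50 ± 0.20 at 7 d (adjusted p = 0.033) did not pass without 7 d replicates 2 and 3 (0.21), nor without 7 d replicate 1, 2 or 3 or ex vivo replicate 1, 4 or 5 (0.058 to 0.089). Rpl31 and Rpl27a have 23 and 4 named pseudogenes, and Rpl31 and Rpl5 overlap another annotated gene, so counts may be shared there.
The 24 h and 6 h libraries were also compared directly. Rpl15, the gene with the longest start tract shown above, was the 1 gene that passed, higher at 24 h by 0.64 ± 0.22 (adjusted p = 0.024, edgeR), where 22% of all genes tested were called higher and 19.8% lower. With the 2 groups fitted alone, 7 genes were higher (34.5% of all genes in that fit) and 13 lower (30.5%), so the count of changes depends strongly on which libraries enter the fit. It held 4.99 and 4.44 CPM at 6 h and 9.88, 10.6 and 9.61 CPM at 24 h, and 18.4 to 26.5 CPM at 7 d. It did not pass without 24 h replicate 2 (adjusted p = 0.062) or without either 6 h library (0.065 and 0.17). The median of the 69 genes was -0.16 with TMM factors, beside 0.007 for all genes. With library totals it was 0.27, beside 0.44 for all genes. Library totals called 5 of the 69 higher and 0 lower, against 5043 and 1332 of all 13840 genes. The sign of this step thus depends on the scaling, while the median of the 69 lay under that of all genes with either.

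The largest rises at 7 d were those of Rps19, Rpl41 and Rps27l. Rps19, a small-subunit protein mutated in Diamond-Blackfan anaemia, held 3.09, 1.33, 7.21, 0.975 and 1.60 CPM ex vivo and 11.7, 47.1, 50.5, 20.1 and 13.8 CPM at 7 d. The groups did not overlap, and the log2 fold change was 3.35 ± 0.52 (adjusted p = 3.5e-05, edgeR). Rpl41, a very short protein, held 5.94, 1.66, 12.2, 3.07 and 2.35 CPM ex vivo and 19.9, 85.1, 83.9, 36.5 and 22.0 CPM at 7 d, a rise of 3.32 ± 0.52 (adjusted p = 4.3e-05, edgeR). Without 7 d replicates 2 and 3 the rises were 2.49 ± 0.46 and 2.46 ± 0.47. Rpl32 (2.70 ± 0.48), Rps18 (2.75 ± 0.55) and Rpl26 (2.61 ± 0.57) also rose at 7 d; without these 2 libraries the changes of Rpl32, Rps18 and Rpl26 were 1.53 ± 0.30, 1.34 ± 0.35 and 1.42 ± 0.47, still past the threshold.
Rps27l, a paralog of Rps27 known as a p53 target, held 5.38, 4.24, 4.47, 1.12 and 1.89 CPM ex vivo, 8.19 and 7.67 CPM at 6 h, 17.7, 16.1 and 17.8 CPM at 24 h, and 27.2, 39.5, 33.4, 35.5 and 25.6 CPM at 7 d. The values of these successive groups did not overlap, and replicates 2 and 3 did not stand apart at 7 d. The log2 fold change was 1.59 ± 0.36 at 6 h (adjusted p = 0.00097, edgeR), 2.27 ± 0.32 at 24 h (adjusted p = 1.2e-05) and 3.27 ± 0.31 at 7 d (adjusted p = 8.3e-08), and 3.18 ± 0.34 at 7 d without replicates 2 and 3. From 24 h to 7 d it rose by 1.00 ± 0.33 (adjusted p = 0.019, edgeR), a step that did not pass without those 2 libraries (adjusted p = 0.064) or without any 1 of the 24 h libraries (0.054 to 0.066).

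**Figure D4:**
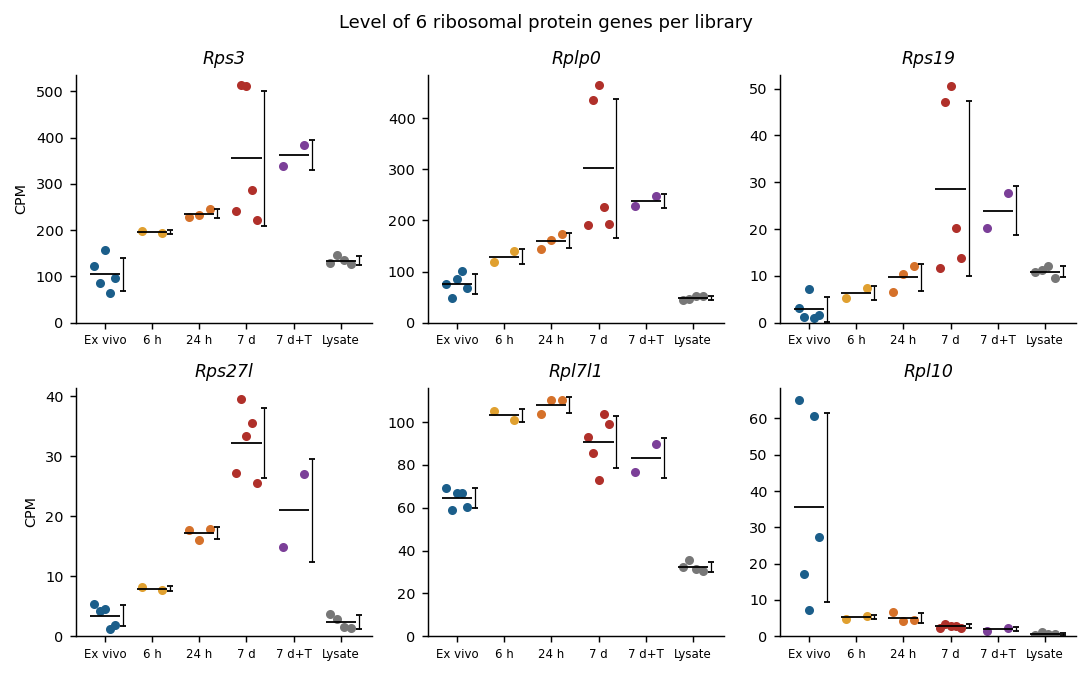
CPM of Rps3, Rplp0, Rps19, Rps27l, Rpl7l1 and Rpl10 in each library of the 6 RNA groups (7 d+T is 7 d with TGFβ); lines are means, bars beside them ± 1 SD, and each vertical axis starts at 0. In Rps3, Rplp0 and Rps19 2 of the 5 libraries at 7 d stand above the rest, in Rps27l and Rpl7l1 they do not, and Rpl10 is highest and most spread ex vivo.

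Between 24 h and 7 d, 21 genes were higher (27.2% of all genes tested) and 1, Rpl12, was lower (21.6% of all genes), with a median of 0.80. This step rested on 2 libraries: without 7 d replicates 2 and 3 the median was 0.05, and 8 genes were higher (22.4% of all genes in that fit), all among the 21, namely Rpl15, Rpl22, Rpl23, Rpl27a, Rpl31, Rpl41, Rpl5 and Rplp1, while 3 were lower (19.4% of all genes), Rpl12, Rpl22l1 and Rps15a. With the replicate number as a block, 38 genes were higher (27.9% of all genes) and 1 lower (21.2%). The count of higher genes was also 10, 12 and 11 without 24 h replicates 1, 2 and 3, 12 without 7 d replicate 3, and 32 and 34 without 7 d replicates 1 and 5, and Rpl12 did not pass without 24 h replicate 3 (adjusted p = 0.051). Against ex vivo, 42 genes were still higher without the 2 libraries (32.2% of all genes in that fit), all among the 50, with a median of 0.77 in place of 1.52. In the lower direction 8 genes passed (34.8% of all genes), the same 7 and Rps25. The 8 risers that no longer passed were Rpl30, Rpl35a, Rpl5, Rpl7, Rplp2, Rps14, Rps15a and Rps3a1. Counted by library, 58 and 57 of the 69 genes lay above the highest ex vivo library in 7 d replicates 2 and 3, against 36, 41 and 30 in replicates 1, 4 and 5. Of all 13840 genes tested, 38.9% and 36.8% did so in replicates 2 and 3, and 31.1%, 33.8% and 30.2% in replicates 1, 4 and 5. The 10 proliferation genes moved in part with this: they summed to 1175 and 606 CPM in replicates 2 and 3 and to 323, 479 and 217 CPM in replicates 1, 4 and 5, beside 84.4 to 187 CPM ex vivo. In the TGFβ libraries, however, they summed to 497 and 1530 CPM with a ribosomal protein share of 0.345% and 0.404%. Some lists described below also stood higher in replicates 2 and 3. Translation factors and other TOP mRNAs summed to 8993 and 9283 CPM there, against 4756, 5358 and 4413 CPM in replicates 1, 4 and 5. Mitochondrial ribosomal protein genes summed to 2006 and 1865 CPM, against 1306, 1557 and 1269 CPM. Ribosome biogenesis genes overlapped, at 2527 and 2138 CPM against 1894, 2156 and 1883 CPM, as did ribosome-linked signalling genes. The part of proliferation in the ribosomal protein values was not tested.

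**Figure D5:**
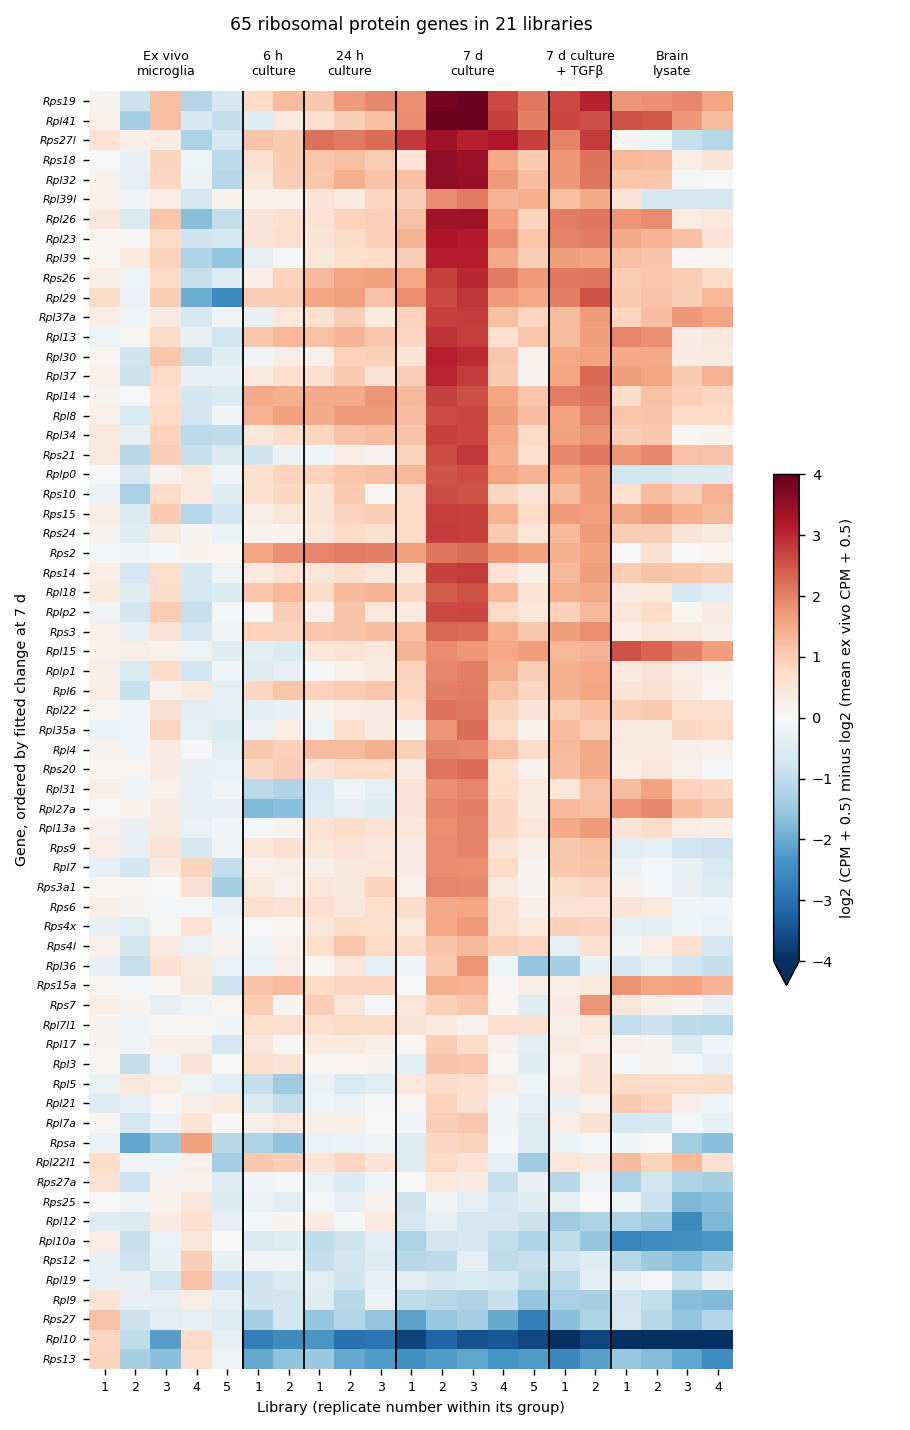
Level of 65 of the 69 genes in 21 RNA libraries as log2 (CPM + 0.5) minus log2 (mean ex vivo CPM + 0.5), genes ordered by their fitted change at 7 d; colours stop at 4 in either direction, below which Rpl10 lies in lysate and in 1 TGFβ library. Replicates 2 and 3 at 7 d are the deepest red columns, and the rows from Rpl12 to Rps13 at the bottom are mostly blue in culture.

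The 7 genes lower at 7 d were Rps13, Rpl10, Rps27, Rpl9, Rps12, Rpl10a and Rpl12, and all have 2 or more named pseudogenes, as do 38 of the 69 genes (55.1%). Rps13 and Rpl10 were lower in each of the 4 culture groups. Rpl10, an X-linked large-subunit protein that joins late in assembly, held 65.2, 17.2, 7.26, 60.7 and 27.2 CPM ex vivo, 4.84 and 5.66 CPM at 6 h, and 6.63, 4.04 and 4.40 CPM at 24 h. It held 2.25, 3.44, 2.73, 2.85 and 2.36 CPM at 7 d, and 1.46 and 2.32 CPM with TGFβ. The ex vivo libraries were all above the cultured ones but ranged widely, and the fall at 6 h did not pass without 6 h replicate 1 (adjusted p = 0.054). The log2 fold change was -2.39 ± 0.67 at 6 h (adjusted p = 0.005, edgeR), -2.88 ± 0.58 at 24 h (adjusted p = 0.00043) and -3.67 ± 0.49 at 7 d (adjusted p = 7e-06).
Rps13 held 5.52, 0.796, 0.502, 4.50 and 2.29 CPM ex vivo and 0.107 to 0.269 CPM at 7 d, and it passed the limit through the ex vivo group alone, so its fall of 3.94 ± 0.67 on the log2 scale at 7 d is partly set by the choice. In both genes ex vivo replicates 1 and 4 were highest and replicate 3 lowest. The immediate early genes Fos and Egr1, named here after their values were seen, held 5369, 566, 26.3, 2118 and 2010 CPM and 9325, 710, 23.0, 7942 and 4402 CPM in the same libraries. Their part in the Rpl10 and Rps13 values was not tested.
Rps27, the parent of the Rps27l pair, held 6.97, 1.33, 1.96, 2.02 and 1.83 CPM ex vivo and 0 to 0.807 CPM at 7 d. Its log2 fold change was -2.76 ± 0.63 (adjusted p = 0.00091, edgeR), and it reached the limit only ex vivo and at 6 h. Its fall at 24 h (-1.99 ± 0.73, adjusted p = 0.025, edgeR) did not pass without 24 h replicate 1 (0.080), 24 h replicate 3 (0.084) or ex vivo replicate 1 (0.098), the library where it was highest.

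Rps6, the substrate of S6 kinases, held 2.12 to 3.46 CPM ex vivo, 4.76 and 4.49 CPM at 6 h and 3.47 to 9.34 CPM at 7 d, with no overlap at either time. It rose by 1.11 ± 0.31 at 6 h (adjusted p = 0.0046, edgeR; 0.066 with library totals) and 1.21 ± 0.25 at 7 d (adjusted p = 0.00037), and did not pass at 24 h (0.66 ± 0.28, adjusted p = 0.051). Rpl13a, known for a role in silencing of inflammatory mRNAs outside the ribosome, held 49.1 to 80.5 CPM ex vivo and 85.9 to 244 CPM at 7 d, where it rose by 1.33 ± 0.25 (adjusted p = 0.00019, edgeR). Rpsa, also described as a laminin receptor, held 2.43, 0.332, 0.731, 10.6 and 1.15 CPM ex vivo and did not pass the test at any time; its log2 fold change at 7 d was 0.35 ± 0.66 (adjusted p = 0.65, edgeR). Rpl22 held 25.9 to 53.4 CPM ex vivo and 51.8 to 161 CPM at 7 d (1.52 ± 0.29, adjusted p = 0.00022, edgeR), with overlap.

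Paralogs that can replace a ribosomal protein were compared with their parents as the log2 ratio of CPM + 0.5 in each library, by exact 2-sided permutation tests over libraries with 10 tests adjusted together (the smallest p this design allows is 0.0079). The Rps27l to Rps27 ratio was 0.29 ± 0.87 (SD, n = 5) ex vivo and 5.23 ± 0.38 (SD, n = 5) at 7 d. The ratios did not overlap, and their difference of 4.95 gave p = 0.0079 (exact permutation test, adjusted p = 0.040). The Rpl22l1 to Rpl22 ratio was -3.45 ± 0.77 (SD, n = 5) ex vivo and -4.83 ± 0.32 (SD, n = 5) at 7 d, a difference of -1.38 with the same exact permutation p of 0.0079 (adjusted p = 0.040). Rpl22l1 itself rose at 6 h (1.54 ± 0.54, adjusted p = 0.019, edgeR), to 6.86 and 6.31 CPM from 0.859 to 5.24 CPM, and at 7 d held 0.786 to 5.45 CPM. That rise did not pass with library totals (adjusted p = 0.079) or without either 6 h library (0.085 and 0.052). Both calls used the smallest p available, and neither stayed under 0.05 after adjustment with any single 7 d library left out or with 0.1 CPM added in place of 0.5 (adjusted p = 0.079). Rps27 is at 0 counts in 7 d replicate 5, so its ratio depends on that added value, and it entered the set through the ex vivo and 6 h groups. The Rpl7l1 to Rpl7, Rpl39l to Rpl39 and Rps4l to Rps4x ratios did not pass at 7 d (differences of -0.67, -0.65 and 0.05), nor did any ratio between ex vivo microglia and lysate (differences of -0.56 to 1.27).
Rpl7l1, a nucleolar relative of Rpl7, had tight values of its own: 69.3, 59.2, 67.1, 66.9 and 60.2 CPM ex vivo, 105 and 101 CPM at 6 h, 104, 110 and 110 CPM at 24 h, and 93.2, 85.5, 73.0, 104 and 99.1 CPM at 7 d. It rose by 1.08 ± 0.14 at 6 h (adjusted p = 2.1e-06, edgeR) and 0.56 ± 0.11 at 7 d (adjusted p = 0.0002), and the 7 d libraries high for most other genes were the lowest for it.

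No ribosomal protein gene passed the test between 7 d cultures with and without TGFβ: 0 were higher (9.57% of all genes tested) and 0 lower (6.52%) by edgeR, DESeq2 also called 0, and without adjustment 0 were higher and 2 lower at p under 0.05. The median log2 fold change was -0.19, and 0.03 or 0.07 without 7 d replicate 2 or 3 alone. Without TGFβ replicate 2, 1 gene was lower, Rps4l. With the high replicates 2 and 3 of the 7 d group left out, the median was 0.60, 0 genes were lower (7.33% of all genes in that fit) and 8 were higher with TGFβ (12.5% of all genes, so near the background), namely Rpl13a, Rpl14, Rpl27a, Rpl37, Rps14, Rps20, Rps24 and Rps9, so the sign of this comparison turns on those libraries. The microglial marker sum was 15893 to 17618 CPM with TGFβ and 7047 to 10724 CPM without.

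Against brain lysate, the ex vivo microglia held 15 genes at a higher level (39.1% of all 15335 genes tested) and 18 at a lower one (43.5%), of 68 tested, with a median of -0.14 beside -0.10 for all genes; Rpl39l had too few counts to test. Both shares were under the background. With library totals 12 were higher and 24 lower, beside 5042 and 7481 of all 15335 genes, and the median of all genes moved to -0.41. Rpl10 stood out with 7.26 to 65.2 CPM in microglia and 0.210, 1.05, 0.604 and 0.608 CPM in lysate, a log2 fold change of 6.11 ± 0.85 (adjusted p = 7.6e-05, edgeR). Rpl10a, a protein of the large subunit unrelated to Rpl10 despite its name, held 4.84 to 13.6 CPM against 1.16 to 1.52 CPM (3.17 ± 0.34, adjusted p = 2.8e-06, edgeR), and Rpl7l1 30.3 to 35.6 CPM in lysate (1.31 ± 0.11, adjusted p = 3.3e-07, edgeR). Lower in microglia were Rpl15, at 4.70 to 8.22 CPM against 23.0 to 42.1 CPM (-1.94 ± 0.21, adjusted p = 2.6e-06, edgeR), Rpl41 (-1.89 ± 0.51, adjusted p = 0.0052) and Rps15a (-1.30 ± 0.21, adjusted p = 8.7e-05). Rps15a held 12.3 to 30.4 CPM in microglia and 57.1 to 78.8 CPM in lysate. Without ex vivo replicate 3, the library with the highest sums of astrocyte, oligodendrocyte and choroid plexus markers, 30 genes were lower in microglia in place of 18.

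Genes that build or regulate the ribosome were described beside these, by counts of those passing the same test, to be read beside the shares of all genes called: 31.2% higher and 36.8% lower at 6 h, 29.6% and 33.1% at 24 h, 34.8% and 35.7% at 7 d, and 27.2% and 21.6% from 24 h to 7 d. Of 35 ribosome biogenesis genes, 26 were higher at 6 h, 33 at 24 h and 26 at 7 d, against 0, 0 and 1 lower, and from 24 h to 7 d 2 were higher and 19 lower. Gnl3, a nucleolar GTPase, rose by 2.22 ± 0.14 at 6 h (adjusted p = 6.5e-10, edgeR), and Ddx21, a helicase of ribosomal RNA processing, by 1.95 ± 0.13 (adjusted p = 1e-09). Of 24 translation factors and other TOP mRNAs tested, 16 were higher at 6 h, 15 at 24 h and 18 at 7 d, against 0, 1 and 3 lower; Eif3a, the scaffold of initiation factor 3, rose by 2.51 ± 0.14 at 6 h (adjusted p = 2e-10, edgeR). Of 76 mitochondrial ribosomal protein genes tested, 21 were higher and 14 lower at 6 h, 39 and 0 at 24 h, and 68 and 1 at 7 d, and 3 were higher and 52 lower in ex vivo microglia than in lysate (39.1% and 43.5% of all genes). At 6 h both shares of the mitochondrial genes (27.6% and 18.4%) were under those of all genes. Of 19 genes of ribosome-linked signalling tested, 10 were higher and 8 lower at 6 h, and 6 higher and 9 lower at 7 d. Larp1 rose by 1.45 ± 0.12 at 6 h (adjusted p = 1.2e-08, edgeR), and Eef2k, the kinase that holds back elongation factor 2, was lower by -3.38 ± 0.26 (adjusted p = 7.4e-09). Biogenesis genes were thus called at a higher share at 6 and 24 h than the ribosomal protein genes, although this difference was not tested. Counts of these lists at 7 d and from 24 h to 7 d include 7 d replicates 2 and 3. The sums of the TOP and mitochondrial lists were highest in those libraries, and list counts without them are not given here.

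Chromatin at the gene starts was described from the deposited peak lists, 1 pooled list per mark and condition, so no test was possible. A peak within 1 kb of the start (of either gene end for the 18 genes with no promoter entry) was present for 65 of 69 genes in ATAC ex vivo (94.2%, against 85.4% of the genes tested) and 64 at 7 d (92.8% against 86.1%). For H3K27ac, a mark of active regulatory regions, it was 67 ex vivo (97.1% against 77.6%) and 67 at 7 d (97.1% against 74%). H3K4me2 marked 68 (98.6% against 89.2%), and PU.1, a factor that macrophages and microglia need, had a peak at 63 (91.3% against 70.5%). ATAC peaks were called in both conditions for 63 genes, ex vivo only for Rpl18 and Rpl35a, at 7 d only for Rpl19, and in neither for Rpl17, Rpl39l and Rpl4. H3K27ac peaks were called in both conditions for 66 genes, ex vivo only for Rpl17, at 7 d only for Rps4l, and in neither for Rpl39l. Rpl39l had no peak of any of the 6 lists within 1 kb, and no PU.1 peak was called at Rpl12, Rpl17, Rpl4, Rpl41, Rpl7a or Rpl39l. Rpl10 and Rps13, which fell, and Rps19 and Rps27l, which rose, each had a peak in all 6 lists. As each list marked 63 to 68 of the 69 genes, the presence of a peak could hardly separate rising from falling genes.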

How the data were processed

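RNA, ATAC and ChIP libraries of mouse microglia and brain lysate were used as deposited. The count table holds whole reads per gene symbol as deposited by the authors, with 24537 genes and 11584561 to 28841472 counts per library. The TPM table was also made and deposited by the authors; its columns sum to 568934 to 644847, and it is named as trimmed, with no account of the trimming. Peak lists give coordinates as the authors deposited them, 1 list per mark and condition, and no score was used. The submitters' processing notes name STAR, Bowtie2, HOMER and R 3.3.1 with build mm10, without roles. How reads matching several places were counted, and whether counting used strand, the sources used here do not give, so counts may be shared with pseudogenes and with overlapping genes, as at Rpl5 and Dipk1a or Rpl31 and Tbc1d8.

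The genes and lists were chosen with earlier results of these data known. Counts were tested with edgeR 4.0.16 (quasi-likelihood, filterByExpr, TMM) under R 4.3.3, in 1 model for the 17 microglial libraries and in another for ex vivo against lysate, with Benjamini-Hochberg adjustment over all genes tested and a threshold of 0.05. DESeq2 1.42.0 on counts and limma 3.58.1 on log2 (TPM + 1) or (TPM + 0.1) were alternatives. Levels are CPM of library totals, or deposited TPM between genes; log2 ratios of paralogs added 0.5 CPM. On simulated counts with 200 changed genes, the 7 d model recovered 64% of 2-fold and 84.7% of 4-fold changes among 13418 genes. For 6 h against ex vivo these shares were 56.6% and 76%, and for ex vivo against lysate 54% and 85.6%.

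Genes were named by rule: per comparison up to 3 rises and 3 falls of greatest size among genes called, without overlap and with at least 20 CPM in the higher group, the stalk genes, Rpsa, Rps6, Rpl13a, Rpl22, the paralog pairs, the 5 highest and 5 lowest in TPM, and of other lists the smallest adjusted p. Rps3, Rps13, Rps18, Rpl5, Rpl6, Rpl10a, Rpl12, Rpl26, Rpl31, Rpl32 and, beyond its own comparison, Rpl27a were added after their values were seen. Some genes stay in all counts, medians and sums but are not reported here by name. Promoter bases and gene positions are from RefSeq, build GRCm38.p6. Summaries and exact permutation tests used Python 3.11.15, numpy 2.4.6, pandas 2.3.3 and scipy 1.17.1. Alternatives covered scaling, filtering, the test, the libraries fitted, the replicate number as a block and each replicate left out.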

Additional observations from a re-analysis of the deposited data

Results flagged for a closer look

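In 6 of 99 groups of 4 or 5 libraries (6.06%), 1 gene's value stood apart from the rest of its group by the gap to its nearest neighbour relative to the group's range; chance gives about 1 in 20. Rpl19 in ex vivo replicate 4 was at 3.00 CPM, against 0.401 to 0.796 in the other 4 libraries. Rpsa was at 10.6 CPM in ex vivo replicate 4, against 0.332 to 2.43. Rps27 in ex vivo replicate 1 was at 6.97 CPM, against 1.33 to 2.02. Rplp2 in ex vivo replicate 3, the library with the highest astrocyte marker sum, was at 35.2 CPM, against 8.92 to 16.5. In brain lysate Rpl39l was at 0.683 CPM in replicate 1 and at 0 counts in the other 3 libraries, and Rps2 was at 26.9 CPM in replicate 2, against 17.3 to 18.4.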

How the results depend on the processing

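Of 227 results on single genes or gene pairs, 3748 of 3967 alternative values kept direction and side of the threshold, 79 newly passed, 140 no longer passed and 0 reversed. Where a value below moved, the cause was not tested unless fewer genes or libraries entered. For 6 h against ex vivo, 13 genes were higher with library totals, where 3068 of all 13840 genes were, and 13 with unfiltered TPM. Lower genes numbered 3 with the 2 groups alone or among genes at 1 CPM in every microglial group. Lower genes at 24 h were 2 with a 5 CPM limit and 2 among genes at 1 CPM in every group, and at 7 d 2 and 4; with TGFβ they were 8 at a 0.5 CPM limit, 2 at 5 CPM and 3 at 1 CPM in every group, and the TGFβ median was 1.15 on TPM with 1 added, filtered or not. Higher genes against lysate were 8 at the 5 CPM limit. From 6 to 24 h the median of -0.16 reversed to 0.27 with library totals (5 higher), where the median of all genes was 0.44. It reversed to 0.17 on TPM plus 1 (3 higher), 0.17 on it unfiltered (2 higher) and 0.18 on TPM plus 0.1 (4 higher). Lower were 2 with DESeq2 size factors, 4 with DESeq2 and 1 at the 0.5 CPM limit, and the 2 groups alone gave 7 higher and 13 lower. From 24 h to 7 d, TPM gave 11 higher and 2 lower (plus 1), 10 and 3 (plus 0.1) and 10 and 2 (unfiltered), the 2 groups alone 2 lower, and the 5 CPM limit 0 lower. TGFβ against 7 d gave 1 lower on TPM plus 1, 2 on TPM plus 0.1, 1 unfiltered, and 1 higher with the 2 groups alone. Without 7 d replicates 2 and 3 the 7 d median was 0.77, the step from 24 h gave 8 higher, 3 lower and a median of 0.050, and TGFβ against 7 d gave 8 higher and a median of 0.60. The share relative to ex vivo was 1.77 at 24 h and 2.37 with TGFβ on summed TPM. PU.1 peaks lay within 2000 bp of 97.1% of genes, and in 200 bases before the start alone the YY1-type and SP1-type words were at 9.68% and 45.2% of starts, against 3.11% and 53.2% for tested genes.

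Leaving out 1 replicate at a time gave these ranges. Against lysate 12 to 16 were higher and 13 to 30 lower (30 without ex vivo replicate 3). At 6 h 16 to 28 were higher and 2 to 5 lower (2 without either 6 h library, 3 without ex vivo replicate 1), and at 24 h 14 to 25 and 2 to 5 (2 without 24 h replicate 1 or ex vivo replicate 1). At 7 d 49 to 53 were higher and 5 to 9 lower, with a median of 1.36 to 1.70. From 6 to 24 h 0 to 1 were higher. From 24 h to 7 d 10 to 34 were higher (10, 12 and 11 without 24 h replicates 1, 2 and 3, 12 without 7 d replicate 3, 32 and 34 without 7 d replicates 1 and 5) and 0 to 1 lower (0 without 24 h replicate 3), with a median of 0.58 to 0.97. TGFβ against 7 d gave 0 to 1 lower (1 without TGFβ replicate 2) and a median of -0.33 to 0.07, reversed without 7 d replicate 2 (0.03) or 3 (0.072). TGFβ against ex vivo gave 31 to 47 higher and 3 to 5 lower (31 and 3 without TGFβ replicate 2). Where 1 library was left in a group, it was taken to vary like the other groups.

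Replicate numbers were not taken to pair libraries. The measure used for pairing, which is not the plain correlation of library levels, gave -0.03 to 0.20 for same-numbered libraries at 7 d and ex vivo. Their levels correlated at 0.81 to 0.85, against 0.80 to 0.86 over all pairs of a 7 d and an ex vivo library. The pairing measure was 0.24 and 0.23 between 24 h and 6 h, and 0.11 and 0.38 between TGFβ and 7 d, with only 2 pairs each. Other comparisons gave -0.14 to 0.10. With the replicate number as a block, 38 genes were higher from 24 h to 7 d, and 2 were higher and 1 lower from 6 to 24 h; no other count moved by over 1.5 times. At these depths, genes near 1 CPM rest on few counts, and smaller changes in them may not be detectable.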
